A study of Rattus norvegicus with 8 samples.

Results

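Insulin and FoxO signalling genes were followed in the rat hippocampus after an acute corticosterone infusion. The group consisted of 10 genes chosen by symbol: the insulin receptor Insr, the adapters Irs1 and Irs2, the PI3-kinase subunits Pik3r1 and Pik3ca, the kinase Akt1, the transcription factors Foxo1, Foxo3 and Foxo4, and the FoxO target Fbxo32. These 10 genes had 12 transcripts among the 16266 transcripts and 13272 gene symbols of the table. Of the 10 genes, 8 had 1 transcript, and Pik3r1 and Foxo4 had 2 each.

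The RNA of whole hippocampi was sequenced from 8 adrenalectomized (ADX) rats aged 3 to 4 months, labelled as Sprague-Dawley, whereas the methods of the study name male Lister hooded rats and give a younger age. Through a jugular cannula, 4 rats (VEH) received 0.45% saline and 4 rats (CORT) received corticosterone-2-hydroxypropyl-β-cyclodextrin at 0.75 mg/mL in that saline, over 30 min from zeitgeber time (ZT) 2, and hippocampi were taken 2 h after the infusion began. Both groups had lost their adrenal glands, had recovered on corticosterone in the drinking water and had been moved to saline alone before the infusion, so VEH rats had no adrenal source of the hormone. The comparison addressed the response of hippocampal transcripts to corticosterone. The cyclodextrin carrier is named for CORT and not for VEH, so effects of the hormone and of its carrier cannot be told apart.

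The table gives 1 FPKM value per transcript and group, that is, fragments scaled for transcript length and for the size of the library, made by the authors from the 4 rats of the group. No single-rat value was used here, and the authors' own test results were set aside, so no SD, standard error or test is given. The read count behind a value is unknown, and a difference between the groups cannot be set against the spread between rats. Ratios are therefore descriptions. All are given as log2 of CORT over VEH without a pseudocount. A whole hippocampus was used, so fewer cells of a type and less RNA per cell cannot be told apart.

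Insulin and the insulin-like growth factors bind receptor tyrosine kinases, which phosphorylate Irs adapters. The adapters recruit PI3-kinase, and its lipid product brings Akt to the membrane. Active Akt phosphorylates FoxO transcription factors, which then bind 14-3-3 proteins and leave the nucleus. When the signal is weak, FoxO factors stay in the nucleus and switch on genes such as Insr, Irs2 and Fbxo32, so that the pathway feeds back on its own receptor and adapter. In muscle and liver, glucocorticoids oppose insulin and raise several FoxO factors and their targets. In the brain, insulin signalling acts on synaptic plasticity as well as on energy use.

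The insulin receptor gene is a known FoxO target, so the promoters of the 10 genes were searched for FoxO letters. RefSeq promoter windows of the GRCr8 build, from 250 bases before to 50 bases after a gene's start, were matched by symbol for 7 of the 10 genes. Irs2, Foxo3 and Fbxo32 were not matched. The FoxO letters GTAAACA were sought on both strands and were found in the windows of Insr and Pik3ca, against 3.78% of all 33469 windows. The 2 windows are shown in the direction of the gene, with the FoxO letters of the other strand in capitals. The first lies at chr12:6128754-6129053 on the minus strand, with the letters beginning 100 bases before the start. The second lies at chr2:117147049-117147348 on the plus strand, with the letters beginning 157 bases before the start.
Insr: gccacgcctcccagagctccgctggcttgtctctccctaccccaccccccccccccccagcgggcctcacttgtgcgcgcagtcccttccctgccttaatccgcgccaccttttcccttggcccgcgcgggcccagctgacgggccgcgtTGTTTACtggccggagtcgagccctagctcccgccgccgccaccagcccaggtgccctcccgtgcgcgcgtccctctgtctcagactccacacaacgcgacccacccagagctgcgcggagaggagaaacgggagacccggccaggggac
Pik3ca: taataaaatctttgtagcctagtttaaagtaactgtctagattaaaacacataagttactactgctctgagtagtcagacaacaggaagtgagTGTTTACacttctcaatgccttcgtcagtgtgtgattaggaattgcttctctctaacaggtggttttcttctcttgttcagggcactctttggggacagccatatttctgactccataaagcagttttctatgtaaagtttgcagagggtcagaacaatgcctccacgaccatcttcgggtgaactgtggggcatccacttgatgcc

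The start used for Pik3ca is 43656 bases inside the gene as RefSeq draws it. The bases from that start begin with the letters atg. The Pik3ca window thus lies far from the gene's outer end, and its matches are not read as promoter matches. The starts used for Insr, Foxo4 and Akt1 are 472, 345 and 2521 bases inside their genes. The core letters ACANNNTGT of a glucocorticoid receptor element were in none of the 7 windows and in 6.86% of all windows. The shorter glucocorticoid receptor letters AGAACA were in the Pik3ca window alone, 6 bases before its start, and in 20.7% of all windows. A match is a run of letters and not a bound site, and the windows are too short to hold distant elements.

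No transcript of the 10 genes differed by 1.5-fold or more between the groups. Of the 15434 transcripts with a mean of at least 1 FPKM over the groups, 3.32% were higher and 3.66% were lower by that fold in CORT, and all 12 transcripts described here were among those compared. At a lower limit, a log2 ratio of 0.32 or more in size, Foxo3 and Irs2 were higher and Fbxo32 was lower, 2 transcripts up and 1 down of 12, against 8.40% and 9.25% of all transcripts compared. The other 9 transcripts differed less, and 8 of the 12 were within 10% of their VEH level. The median log2 ratio of the 12 was 0.066, and that of all transcripts compared was 0.024. The middle of the whole table was narrow, with a 25th percentile of -0.10 and a 75th of 0.13, and 42.6% of transcripts had a ratio under 0.1 in size.

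**Figure D1:**
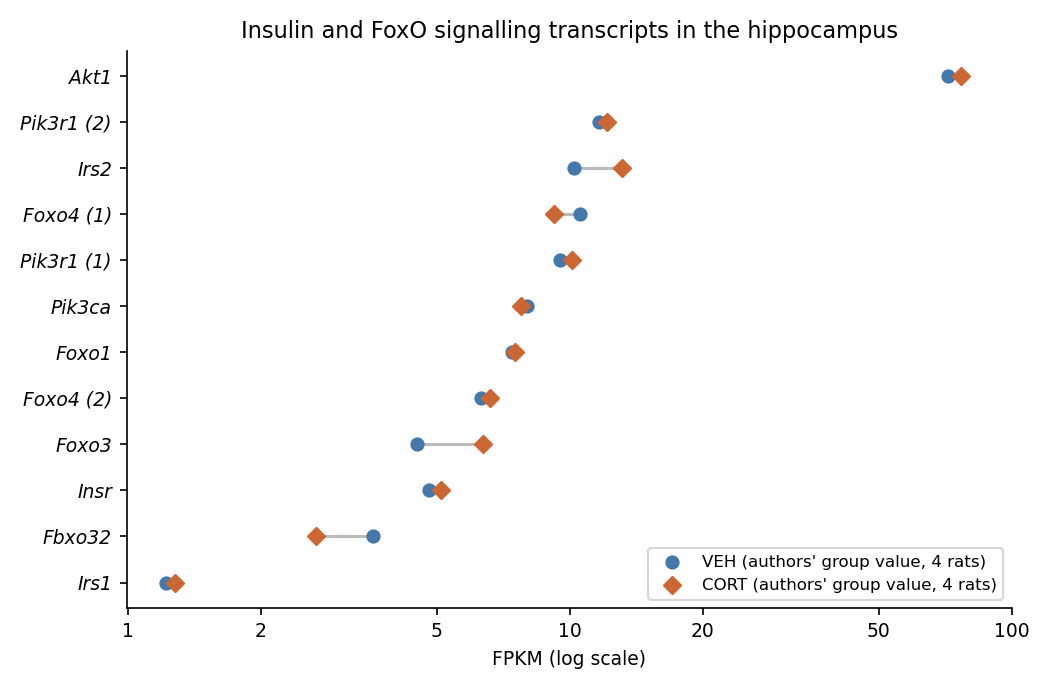
Authors' group FPKM (log axis) of the 12 transcripts, VEH as circles and CORT as diamonds, ordered by mean level. (1) and (2) mark the transcripts of Pik3r1 and Foxo4 in order of identifier, and no error is drawn because each point is 1 value per group. The points nearly coincide except for Foxo3 (4.52 and 6.38), Irs2 (10.2 and 13.1), Fbxo32 (3.59 and 2.67) and 1 Foxo4 transcript (10.6 and 9.20).

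The levels of the 12 transcripts covered a 59.4-fold range. Akt1 stood highest, with 91.5% of the transcripts compared below it. Irs1 stood lowest, with 3.58% below it. Between these, Pik3r1, Irs2, Foxo4, Pik3ca and Foxo1 were close to one another, and neighbours in that order cannot be separated without a spread between rats.

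Insr, the receptor itself, was at 4.80 FPKM in VEH and 5.12 FPKM in CORT. Its transcript ENSRNOT00000041155.3 lies on chromosome 12 of rn6 between 1680956 and 1816414. The log2 ratio of 0.095 is a difference of 6.80%, and 59.2% of all transcripts compared had a larger ratio in size. Igf1r, the paralog that binds insulin-like growth factor 1, was at 1.86 and 2.54 FPKM, a log2 ratio of 0.45. The level of Insr was 2.58 times that of Igf1r in VEH and 2.02 times in CORT.

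Irs2, an adapter that carries the signal from the receptor to PI3-kinase, was at 10.2 FPKM in VEH and 13.1 FPKM in CORT. The transcript, ENSRNOT00000032918.6, lies on chromosome 16 between 83824429 and 83848684. Its log2 ratio was 0.36, a level 28.4% higher in CORT. When the groups were set to the same total FPKM the ratio was 0.27, under the lower limit of 0.32. With all transcripts compared divided by mean level into 10 bins of like size, 7.97% of the 1543 transcripts in the bin of Irs2 had a larger ratio in size. Irs1, the other main adapter, was near the floor of the comparison at 1.22 and 1.28 FPKM, a log2 ratio of 0.067, on chromosome 9 between 88033667 and 88086488. Irs2 was thus the main adapter of the pair, at 8.37 times the level of Irs1 in VEH and 10.3 times in CORT.

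PI3-kinase of class IA is a dimer of a regulatory and a catalytic subunit. Pik3r1, the regulatory gene, has 2 transcripts at one locus on chromosome 2 between 31745087 and 31826867. ENSRNOT00000025687.7 was at 9.50 and 10.1 FPKM in VEH and CORT, and ENSRNOT00000075057.1 was at 11.7 and 12.1 FPKM. Both log2 ratios were small, 0.094 and 0.058, and the second transcript made up 55.1% of the gene's FPKM in VEH and 54.5% in CORT, so the balance of the forms differed little. Pik3ca, the catalytic p110α gene, was at 7.99 FPKM in VEH and 7.75 FPKM in CORT, a log2 ratio of -0.043, on chromosome 2 between 118831349 and 118861454.

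Pik3r1 was not the most abundant regulatory gene. Pik3r2, a second regulatory gene, was at 60.6 and 65.0 FPKM, and held 68.3% of the summed FPKM of Pik3r1, Pik3r2 and Pik3r3 in VEH and 69.7% in CORT. Pik3r3 was at 7.01 and 5.91 FPKM, a log2 ratio of -0.25. On the catalytic side Pik3ca led, with 50.3% of the summed FPKM of Pik3ca, Pik3cb and Pik3cd in VEH and 47.8% in CORT. Pik3cb, at 2.84 and 3.54 FPKM, had the largest ratio of these catalytic genes, 0.32 on the log2 scale. The summed levels of the regulatory genes (88.8 and 93.2 FPKM) and of the catalytic genes (15.9 and 16.2 FPKM) differed by 0.070 and 0.029 on the log2 scale.

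Akt1, the kinase that phosphorylates FoxO factors, was at 71.9 FPKM in VEH and 76.7 FPKM in CORT. Its log2 ratio was 0.093, on chromosome 6 between 137218375 and 137236258. The level of Akt1 was 2.57 times that of Akt2 in VEH and 2.88 times in CORT. Akt2, the form best known for glucose uptake, was at 28.0 and 26.6 FPKM, a log2 ratio of -0.071.

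**Figure D2:**
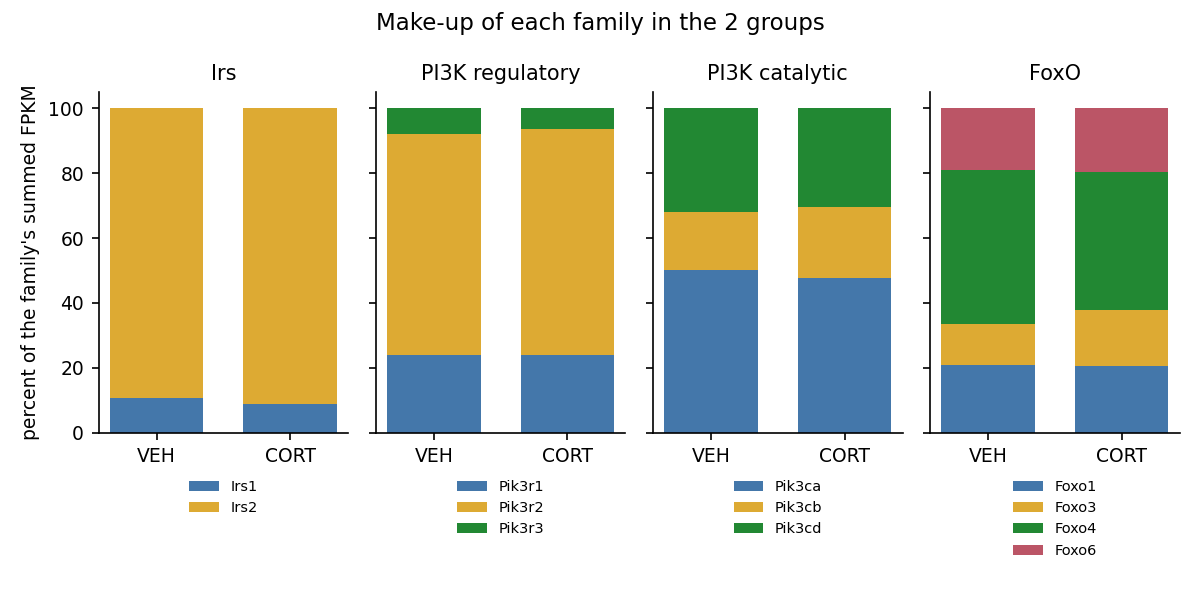
Percent of each family's summed FPKM held by each gene, in VEH and in CORT, with transcripts of a gene added together and 1 group value per bar. Every share drawn differed by less than 5 percentage points between the groups, Foxo3 (12.7% and 17.3%) and Foxo4 (47.4% and 42.8%) among them. The pair of Insr and Igf1r, not drawn, differed more, with Insr at 72.0% of their sum in VEH and 66.9% in CORT.

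The FoxO factors had unequal ratios. Foxo3, which is known for roles in cell survival, autophagy and neural stem cell maintenance, was at 4.52 FPKM in VEH and 6.38 FPKM in CORT. This log2 ratio of 0.50, a level 41.1% higher in CORT, was the largest of the 12 transcripts. Of the 1544 transcripts in its bin of mean level, 6.93% had a larger ratio in size. The transcript, ENSRNOT00000000327.5, is the only Foxo3 transcript of the table and lies on chromosome 20 between 46428123 and 46519144.

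Foxo1, the FoxO factor through which insulin controls glucose production in liver, was at 7.40 and 7.54 FPKM, a log2 ratio of 0.026. It lies on chromosome 2 between 141451233 and 141527016, and 88.0% of all transcripts compared had a larger ratio in size. Foxo1 was at 1.64 times the level of Foxo3 in VEH and at 1.18 times in CORT. The sign of the Foxo1 ratio depended on the scaling between the groups. The ratio was -0.064 with the groups set to the same total FPKM and -0.0035 with them set to the same upper quartile.

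Foxo4 had 2 transcripts with ratios of opposite sign. ENSRNOT00000048521.3 was at 10.6 FPKM in VEH and 9.20 FPKM in CORT, a log2 ratio of -0.20. ENSRNOT00000076453.2 was at 6.31 and 6.60 FPKM, a log2 ratio of 0.066, which turned to -0.024 with the groups set to the same total FPKM. With the groups set to the same upper quartile of FPKM its ratio was 0.036. Together the transcripts gave 16.9 and 15.8 FPKM, a log2 ratio of -0.095. The table places both in a locus on chromosome X between 71127674 and 71222732 that also holds transcripts of Nlgn3 and Med12, so its bounds are wider than the Foxo4 gene. How reads were divided between overlapping forms of a gene is part of the authors' estimate and was not tested.

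Foxo6, a FoxO factor expressed mainly in brain, was at 6.83 and 7.22 FPKM, a log2 ratio of 0.082. The 4 FoxO genes summed to 35.6 FPKM in VEH and 36.9 FPKM in CORT, a log2 ratio of 0.052. Foxo4 held the largest share of that sum in both groups, 47.4% and 42.8%. The share of Foxo3 was the smallest in both, 12.7% and 17.3%.

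Fbxo32 encodes atrogin-1, the substrate-binding part of a ubiquitin ligase that FoxO factors and glucocorticoids raise in wasting muscle. In the hippocampus it was at 3.59 FPKM in VEH and 2.67 FPKM in CORT. The log2 ratio was -0.43, the lowest of the 12 transcripts, and the level in CORT was 0.744 times that in VEH. Of the 1543 transcripts in its bin of mean level, 17.2% had a larger ratio in size. With a pseudocount of 1 FPKM the log2 ratio was -0.321905, just short in size of the lower limit of 0.321928. ENSRNOT00000010361.3 lies on chromosome 7 between 98063734 and 98098268. Fbxo32 thus stood lower in CORT, whereas Foxo3 stood higher.

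**Figure D3:**
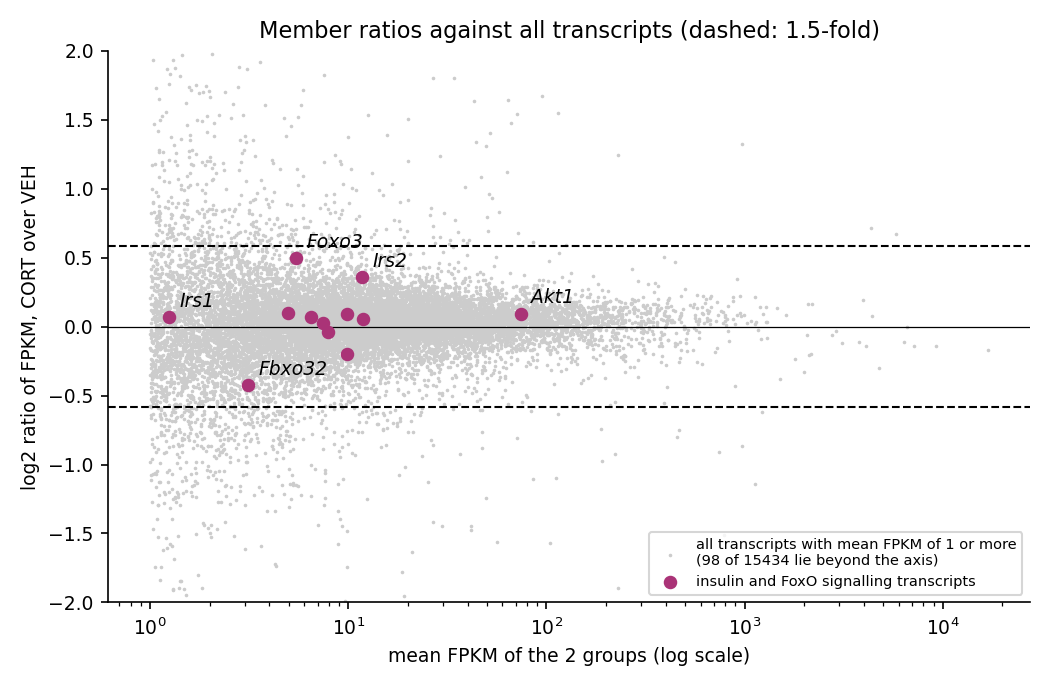
Log2 ratio of group FPKM (CORT over VEH) against mean FPKM (log axis) for all 15434 transcripts with a mean of at least 1 FPKM in grey and the 12 insulin and FoxO signalling transcripts in purple, with dashed lines at 1.5-fold. The 12 points lie between -0.43 and 0.50, inside the dashed lines, and the grey cloud is wider at low FPKM.

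The rest of the pathway was described with 10 lists of genes, in which 122 further genes with 148 transcripts could be compared. Of these transcripts, 13 were higher (8.78%) and 5 were lower (3.38%) by 1.5-fold or more, against 3.32% and 3.66% of all transcripts compared. Their median log2 ratio was 0.059, against 0.024. The lists were written with results of these data known, so the counts describe them and do not stand as independent evidence.

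Upstream of PI3-kinase stand the ligands, receptors and adapters. Among ligands and receptors, 0 of 6 transcripts were past the fold, and the most abundant gene was Igf2, a growth factor made by meninges and choroid plexus, at 59.0 and 46.3 FPKM for its main transcript, a log2 ratio of -0.35. Among 16 adapter transcripts, 1 was lower, a Shc1 transcript at 3.40 and 2.21 FPKM (-0.62), while the other Shc1 transcript was at 2.82 and 2.93 FPKM. The most abundant adapter gene was Grb2, which links receptors to Ras, at 23.3 and 24.1 FPKM for its main transcript. Of 13 PI3-kinase transcripts, 1 of Pik3c2b, a class II enzyme, was higher (1.59 and 2.53 FPKM, 0.67) and Pik3cg, the leukocyte form, was lower (1.41 and 0.862 FPKM, -0.71). Both rest on low levels, and with a pseudocount of 1 FPKM neither was past the fold, nor was Shc1. The main Pik3c2b transcript was at 7.39 and 6.75 FPKM (-0.13). After transcripts were summed by gene, 0 PI3-kinase genes were higher by the fold and 1 was lower. With 3.32% of all transcripts compared higher and 3.66% lower, counts of 0 or 1 in lists of this size do not set them apart from the rest of the table.

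Around Akt, 1 of 8 transcripts was higher by the fold, that of Prr5, a subunit of the complex mTORC2 that activates Akt, at 1.98 and 4.12 FPKM (1.06). Of 23 transcripts of pathway inhibitors, 4 were higher and 0 were lower, where 3.32% of all transcripts compared were higher and 3.66% lower. The count of higher transcripts was 0 with a pseudocount of 1 FPKM, and 2 with transcripts summed by gene or with 1 FPKM required in both groups. The 4 were Socs3, which blocks receptor signalling, at 0.991 and 1.59 FPKM (0.68), Trib1 at 1.13 and 1.85 FPKM (0.71), and 1 transcript each of the phosphatases Inpp5k (3.14 and 4.84 FPKM, 0.63) and Ptprf (0.800 and 1.41 FPKM, 0.82). The main transcripts of those phosphatase genes differed less, with Inpp5k at 19.5 and 19.7 FPKM and Ptprf at 11.9 and 13.6 FPKM. The most abundant inhibitor gene was the phosphatase subunit Ppp2r5c, at 69.7 and 71.0 FPKM for its main transcript. Among 21 transcripts of Akt substrates and outputs 1 was lower, a minor form of the lipid synthesis regulator Srebf1 (2.28 and 1.42 FPKM, -0.68), and it was not past the fold with a pseudocount of 1 FPKM. Gsk3a, the most abundant gene of that list, was at 138 and 153 FPKM (0.14).

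Among 22 transcripts of FoxO cofactors and regulators, 1 was higher and 1 lower by the fold, against 3.32% and 3.66% of all transcripts compared. The higher one was the main transcript of Sgk1, at 28.5 and 70.4 FPKM (1.31), while the other Sgk1 transcript had a log2 ratio of 0.042. Sgk1 is a kinase close to Akt that phosphorylates FoxO3 and a classical corticosteroid target. The lower one, the low-level Sgk2, was at 1.37 and 0.649 FPKM (-1.08), and was not past the fold with a pseudocount of 1 FPKM. Among the 14-3-3 genes, which hold phosphorylated FoxO in the cytoplasm, Ywhah was the most abundant, at 971 and 1028 FPKM (0.083). The 14-3-3 gene Sfn was under the floor of the comparison, at 0.964 and 0.712 FPKM.

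Of the 34 transcripts of FoxO target genes, 6 (17.6%) from 5 genes were higher and 1 was lower by 1.5-fold or more, against 3.32% and 3.66% of all transcripts compared, and the median log2 ratio was 0.080. Of the 6 higher transcripts, those of Cdkn1a and Ddit4 also stand in the list of genes known to be raised by corticosteroids, and Klf15 and Pdk4, which that list leaves out, are known corticosteroid targets as well. The FoxO target list was written with results of these data known, so its share is no independent evidence. The cause of the higher levels was not tested. At a fold of 2, 1 FoxO target transcript was higher and 0 were lower, and at the lower limit of 0.32 these were 12 and 5. Pdk4, which shuts down glucose oxidation, was at 1.39 and 8.11 FPKM (2.54). Klf15, a regulator of amino acid and glucose metabolism, was at 7.35 and 14.6 FPKM (0.99). The 2 transcripts of the cell-cycle inhibitor Cdkn1a were at 5.13 and 9.30 FPKM (0.86) and at 6.61 and 11.9 FPKM (0.85). Ddit4, an inhibitor of mTORC1, was at 41.5 and 73.9 FPKM (0.83), and Trib1 was named above. Ccnd1, a cyclin that FoxO factors repress, was at 13.9 and 8.92 FPKM (-0.64), and was not past the fold with a pseudocount of 1 FPKM. Gabarapl1, an autophagy gene and the most abundant of the list, was at 347 and 385 FPKM (0.15). Of the 34 transcripts, 20 had a log2 ratio above 0 and 14 below it, where 55.6% of all transcripts compared were above 0, and Fbxo32 was among the 14, as were Ccnd1 and Txnip (-0.46). The list mixes genes that FoxO factors raise with genes that they repress, such as Ccnd1. Counts by sign over it therefore have no single meaning for FoxO activity.

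Among 15 transcripts of ubiquitin ligase genes, that of Trim54 was higher (0.597 and 1.60 FPKM, 1.42) and 0 were lower, which does not set the list apart from the 3.32% and 3.66% of all transcripts compared. Trim54 was not compared when 1 FPKM was required in both groups. The most abundant gene, Skp1, was at 582 and 588 FPKM. Trim63, the usual partner of Fbxo32 in muscle, was not analysed here.

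**Figure D4:**
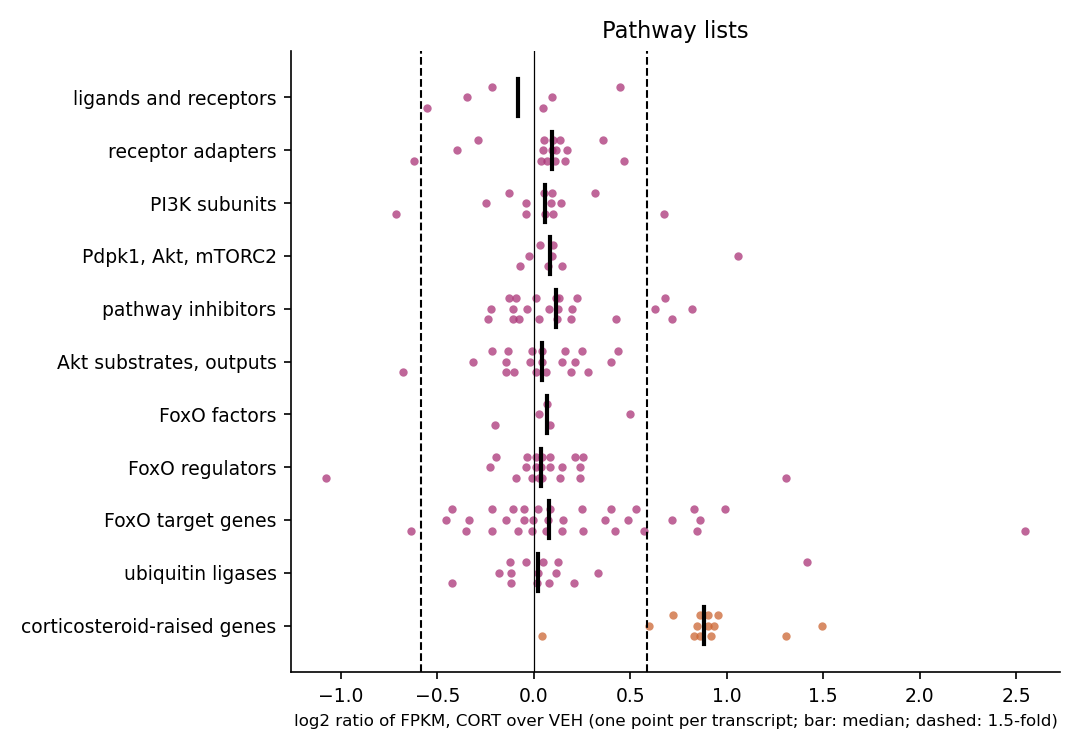
Log2 ratio of group FPKM (CORT over VEH) of each transcript with a mean of at least 1 FPKM in 10 pathway lists (purple) and in a list of genes known to be raised by corticosteroids (orange), with the median as a bar and dashed lines at 1.5-fold. The medians of the pathway lists lie between -0.084 and 0.12 and that of the corticosteroid-raised genes at 0.88.

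Genes known to be raised by corticosteroids give a scale for the ratios in CORT. Of their 14 transcripts 13 were higher by 1.5-fold or more, against 3.32% of all transcripts compared, with a median log2 ratio of 0.88, and 2 were higher at a fold of 2. The exception was the minor Sgk1 transcript (0.042). This list was also written with results of these data known. The study itself names Per1, Klf9, Sgk1, Zfp189 and Tsc22d3 as under corticosteroid control, partly from this experiment. The counts therefore describe the chosen genes and do not stand as independent evidence. The list is not separate from the pathway, since 5 of the 14, from Sgk1, Ddit4 and Cdkn1a, also stand in the pathway lists and 4 of these are among the 13 higher transcripts counted there. The 9 transcripts in no pathway list were all higher by the fold, with a median log2 ratio of 0.90. Per1, a clock gene, was at 10.2 and 19.7 FPKM (0.95), and Tsc22d3, which encodes GILZ, was at 36.5 and 69.6 FPKM for its main transcript (0.93). Fkbp5, a chaperone of the glucocorticoid receptor, was at 18.6 and 33.8 FPKM (0.86), and Klf9 was at 25.7 and 38.8 FPKM (0.60). The ratio of Foxo3 (0.50) was below each of these 4, and those of Irs2 (0.36) and Insr (0.095) were lower still.

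The tissue label was checked with lists of cell type markers. Counts past the fold stand beside 3.32% higher and 3.66% lower of all transcripts compared. Neuronal markers were abundant, led by Snap25, and summed to 3071 FPKM in VEH and 3253 FPKM in CORT, with 0 of 12 transcripts past the fold. The 4 blood markers were all lower in CORT by 1.5-fold or more, with a sum of 1419 and 812 FPKM and Hba1 as the most abundant. Of 6 markers of meningeal fibroblasts 3 were lower by the fold, with a sum of 158 and 126 FPKM led by Igfbp2. Sums were also lower in CORT for oligodendrocytes (7496 and 6156 FPKM, led by Mbp, 0 of 12 past the fold), microglia (313 and 272 FPKM, led by C1qa, 1 of 10 higher) and endothelial cells (77.3 and 67.9 FPKM, led by Cldn5, 1 of 6 lower). Astrocyte markers summed to 2788 and 2315 FPKM, with 2 of 14 transcripts higher and 2 lower. Most of that difference lay in Gfap, the astrocyte filament protein, at 970 and 517 FPKM, and without it the sums were 1818 and 1798 FPKM. S100b, the most abundant astrocyte marker, was at 1066 and 1095 FPKM. Of the 14 astrocyte transcripts, 9 had a log2 ratio below 0 and 5 above it, with a median of -0.094. The main transcripts of Aldh1l1 (6.39 and 4.02 FPKM, -0.67) and Aqp4 (93.6 and 65.5 FPKM, -0.51) were lower in CORT. A minor transcript of each of these genes was higher by the fold. Choroid plexus markers, led by Ttr, were at 6749 and 6736 FPKM, with 0 of 6 past the fold. Of the skeletal muscle markers only Acta1 could be compared, at 8.58 and 9.74 FPKM. Their part in the ratios of Fbxo32, Igf2 and the other genes was not tested.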

How the data were processed

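The authors aligned the reads to rn6 with TopHat2 2.0.10 and made the FPKM values with Cufflinks and Cuffdiff 2.2.0 (base calls with CASAVA 1.8.2), per the labels and the study's methods. These version numbers are from the labels, and the study's methods give a different version of Cuffdiff. The libraries were stranded total RNA. Values were normalized geometrically between libraries, with corrections for multiply mapped reads, sequence bias and effective length, and transcripts with too few alignments had been removed. Each deposited FPKM value combines the 4 rats of a group. The table also holds the authors' own fold changes, test statistics, p-values and q-values, which were not used.

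From the deposited FPKM values, log2 ratios, counts past a fold of 1.5 among transcripts with a mean of at least 1 FPKM, and shares of families were computed with Python 3.11.15, numpy 2.4.6 and pandas 2.3.3, and plots with matplotlib 3.10.9. Counting was checked on a table with known ratios. Genes were matched by exact symbol. The 10 genes and all lists were chosen with earlier results of these data known. The genes named beside them were their paralogs, the most abundant gene of each list, up to 4 genes per list and direction past the fold by size, and 5 corticosteroid-raised genes. Second transcripts of such genes, and marker genes other than the list leaders, were named after their values were seen. 1 paralog is not reported here. The study's methods give an approximate read total for a lane of pooled libraries, and no depth was taken for a single rat.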

Additional observations from a re-analysis of the deposited data

How the results depend on the processing

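The median log2 ratio of the 12 transcripts was 0.066 and lay between -0.024 (groups set to the same total FPKM) and 0.071 (transcripts summed by gene) under the alternatives run. No transcript of the 10 genes was past the fold under any alternative except the lower limit, a log2 ratio of 0.32, with 2 higher and 1 lower. Of 102 ratios of these transcripts under alternatives, 1 moved by 0.1 or more (Fbxo32, pseudocount of 1 FPKM) and 5 changed sign, to values between -0.064 and -0.0035.

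For all transcripts compared, 513 were higher and 565 lower. With a pseudocount of 1 FPKM these were 304 and 312, at a log2 ratio of 0.32 they were 1297 and 1428, at a fold of 2 they were 208 and 200, and with transcripts summed by gene 195 and 367. With the most abundant transcript of each gene 213 were higher and 392 lower. With the groups set to the same total FPKM the split was 385 higher and 740 lower. For the pathway lists together, 13 were higher and 5 lower. With a pseudocount of 1 FPKM these were 8 and 0, at a log2 ratio of 0.32 they were 27 and 12, and at a fold of 2 they were 4 and 1. Lower transcripts numbered 3 with transcripts summed by gene, with the most abundant transcript of each gene, and with 1 FPKM required in both groups. Of 242 counts for single lists, 41 differed by over 1.5 times from those above. The cause was not tested.

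Leaving out each rat was not run, since only group values were used. No paired analysis was possible because each column is a value for a whole group. No depth was taken for a single rat, and the error of low levels such as that of Irs1 is unknown.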

Other observations

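Genes of glucose uptake on the output side of insulin signalling were looked at after their values were seen. Slc2a1, the glucose transporter of the blood-brain barrier and of astrocytes, was at 46.1 FPKM in VEH and 62.5 FPKM in CORT, a log2 ratio of 0.44. Txnip, an inhibitor of glucose uptake and a FoxO target, was at 36.6 and 26.7 FPKM, a log2 ratio of -0.46. Tbc1d4, an Akt substrate that controls transporter traffic, was at 1.69 and 2.02 FPKM, a log2 ratio of 0.25. Its paralog Tbc1d1 was more abundant, at 11.2 and 10.4 FPKM, with a log2 ratio of -0.10. Ptpn1, the phosphatase that switches off the insulin receptor, was at 19.4 and 26.1 FPKM, a log2 ratio of 0.43. None of these was past a fold of 1.5, where 3.32% of all transcripts compared were higher and 3.66% lower. At the lower limit of 0.32, Slc2a1 and Ptpn1 were higher and Txnip was lower, against 8.40% and 9.25% of all transcripts compared. Endothelial markers, which share a cell type with Slc2a1, summed to 77.3 FPKM in VEH and 67.9 FPKM in CORT, and their part in these values was not tested.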
